A study of Mus musculus with 112 samples.

Results

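Cytosolic ribosomal proteins are the protein components of the cytoplasmic ribosome, and 78 of the 32285 genes listed in the count tables belonged to them. They were taken by symbol: Rpl or Rps followed by a number, with an optional a or x, plus Rplp0, Rplp1, Rplp2, Rpsa, Rpl22l1 and Rps27l. Of these 78 genes, 47 encode large subunit proteins and 31 small subunit proteins. All 78 passed the filter on low counts in every comparison.

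The libraries were 3' end RNA libraries (SC3-seq, made from 1 ng of RNA) of cells sorted from the proximal small intestine of C57BL/6 mice carrying the Lgr5-eGFP-IRES-CreERT2 reporter. Young mice were 2 or 3 months old and aged mice 23 to 27 months old; all carried the reporter and no other treatment is labelled. Intestinal stem cells (ISCs) were the Lgr5-GFP high cells and progenitors the GFP medium to low cells, all of them sorted as Epcam high with low CD24. Paneth cells, the niche cells of the crypt base, were CD24 high, high in side scatter and GFP negative. There were 11 young and 12 aged ISC samples, 10 young and 10 aged progenitor samples, and 12 young and 12 aged Paneth samples, 1 per animal and cell type, with both sexes in each group. The 69 Paneth libraries were technical libraries and were summed per animal, so 112 libraries gave 67 samples. Depth was 2176833 to 5586711 counts per ISC sample, 2476086 to 7569896 per progenitor sample and 2823489 to 11821614 per summed Paneth sample. The gates that define each population are its main limit as a model, since each is known only by GFP, CD24 and scatter. The defining markers were highest in the labelled population: summed ISC markers were at 7038 to 12958 CPM (counts scaled to the library size) in ISC samples. They were at 741.4 to 1937 CPM in progenitors and at 1694 to 5701 CPM in Paneth samples. Summed Paneth markers were at 112080 CPM or more in Paneth samples and at most 2297 CPM elsewhere. Summed goblet markers were at 8681 to 34303 CPM in progenitors, 395.5 to 1878 CPM in ISC samples and 4081 to 12983 CPM in Paneth samples.

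Each ribosome carries one copy of most of these proteins, and cells make them in near equal amounts. Their messages typically begin with a run of pyrimidines, the terminal oligopyrimidine tract, through which translation of the whole family is tuned by mTOR signalling. In the crypt the family is known as part of the growth programme of dividing cells, which is set in part by Myc. Several members have duties outside the ribosome: Rpl5 and Rpl11, carried with the 5S rRNA, bind Mdm2 and so stabilise p53, and Rps6 is the classical target of the S6 kinases.

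The starts of the genes on which the results below turn are shown first, because the pyrimidine run at the start is what the family is known to share. Each sequence is 50 bases of the gene's strand around the annotated start (RefSeq, GRCm38.p6), and the capitals mark the longest run of C and T within 20 bases of that start.
Rps6: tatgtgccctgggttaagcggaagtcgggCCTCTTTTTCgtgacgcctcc
Rpl35: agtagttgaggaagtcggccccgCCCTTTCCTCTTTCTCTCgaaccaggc
Rps10: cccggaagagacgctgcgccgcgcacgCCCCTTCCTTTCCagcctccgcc
Rps19: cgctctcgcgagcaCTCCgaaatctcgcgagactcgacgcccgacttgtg
Rpl5: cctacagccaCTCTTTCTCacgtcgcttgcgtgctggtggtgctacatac
Rps18: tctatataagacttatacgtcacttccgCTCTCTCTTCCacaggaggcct
Rpl4: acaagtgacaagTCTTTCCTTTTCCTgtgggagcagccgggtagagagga
Rpsa: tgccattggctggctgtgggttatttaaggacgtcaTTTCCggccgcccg
Rps15: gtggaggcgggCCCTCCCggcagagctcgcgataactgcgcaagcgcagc
Rpl38: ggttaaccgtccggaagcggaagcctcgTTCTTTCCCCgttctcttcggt
These windows lie at chr4:86857348-86857397 for Rps6 (minus strand), chr2:39005112-39005161 for Rpl35 (minus), chr17:27635225-27635274 for Rps10 (minus) and chr7:24884562-24884611 for Rps19 (plus). They lie at chr5:107900498-107900547 for Rpl5 (plus), chr17:33955646-33955695 for Rps18 (minus) and chr9:64173357-64173406 for Rpl4 (plus). The last 3 are chr9:120127736-120127785 for Rpsa (plus), chr10:80292401-80292450 for Rps15 (plus) and chr11:114668550-114668599 for Rpl38 (plus). In Rps6, Rpl35, Rps10, Rps18 and Rpl38 the run spans the annotated start, in Rps19, Rpl5, Rpl4 and Rps15 it lies before it, and in Rpsa it lies after it. For Rps19 the table holds 3 starts, and the first listed is shown. Positions of the runs hold for the RefSeq start shown, and starts in other annotations, which can lie elsewhere, were not compared.

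The RefSeq promoter table, 250 bases before to 50 after each start, held 58 of the 78 members. The longest pyrimidine run within 20 bases of the start had a median of 7 bases in the members and 5 bases over the 27025 genes of the table. A run of at least 8 bases was present in 28 of 58 members (48.3%) and in 15.9% of all genes. 3 short pyrimidine motifs, which can overlap one another, were searched on the given strand within 20 bases of the start. CTCTTTC was present in 10.3% of members and 0.537% of all genes. For CTTTCC the shares were 15.5% and 1.9%. For CTTTTC they were 6.9% and 1.4%. At least 1 of the 3 was present in 25.9% of members and 3.59% of all genes. Over the whole window and both strands, CCGGAAG, an ETS-type motif, was present in 39.7% of members and 9.12% of all genes. GGGCGG, an Sp1-type motif, was present in 60.3% and 35.9%, AAGATGG, a YY1-type motif, in 13.8% and 6.48%, and TATAAA in 10.3% and 14.2%. CACGTG, the E-box that Myc can bind, was present in 8.62% of members and 7.24% of all genes. These are matches of letters in 1 window and were not tested.

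The 67 samples were not of 1 kind, and this has to be stated before any comparison. The names of the 23 ISC libraries end in 1 of 3 ways: 7 in _H, 13 in _H_1 and 3 in _H_2, and no source used here says what the endings stand for. The 13 libraries ending in _H_1, and the Paneth samples of the same animals (7 of 24), are called the H_1 set here; the division was made from the names after the values had been seen. The set held 6 of 11 young and 7 of 12 aged ISC samples, 3 of 12 young and 4 of 12 aged Paneth samples, and none of the 20 progenitor samples. Age is therefore nearly balanced over the set, while progenitors can be compared with ISCs free of the set only outside it. ISC samples outside the set still mix the endings _H and _H_2. The 3 libraries ending in _H_2 are the only aged male ISC samples outside the set, from animals of 26 and 27 months. In aged ISCs outside the set, male sex, this ending and the oldest ages therefore cannot be told apart. The progenitor libraries of the same 3 animals end in _L_2, and all other progenitor libraries in _L. No young ISC or progenitor library ends in _H_2 or _L_2. In male ISCs outside the set, age and this ending cannot be told apart, and in male progenitors they are partly confounded. The main comparisons below are given over all samples and outside the set.

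The ribosomal protein genes separated the H_1 set from the other libraries, some far higher and others far lower. Rps6 was the extreme case. In young ISCs outside the set it stood at 235.2, 423, 517.8, 531.2 and 559.1 CPM, and in the 6 young ISC samples of the set at 31.71 to 49.35 CPM (median 40.93). In aged ISCs it stood at 237, 240.1, 257, 261.9 and 644.4 CPM outside the set and at 39.1 to 67.44 CPM (median 45.48) within it. Paneth samples showed the same division: 305.9 to 637.4 CPM in young samples outside the set against 25.65, 28.61 and 30.9 CPM within it, and 222.7 to 561.6 CPM in aged samples outside it against 34.91, 44.99, 52.57 and 57.37 CPM. No sample of the set reached the lowest sample outside it in either cell type.

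By edgeR's quasi-likelihood test over all genes, with Benjamini-Hochberg adjusted p below 0.05 as the threshold for calling a gene, Rps6 was lower in the set by 3.09 ± 0.21 on the log2 scale in ISCs (SE; adjusted p = 6.1e-10). In Paneth cells it fell by 3.48 ± 0.23 (edgeR adjusted p = 1.26e-13). In ISCs 46 of 78 members were called, 22 higher and 24 lower in the set, which is 59.0% of members against 5.09% of all 11958 genes tested. In Paneth cells 31 of 78 were called, 11 higher and 20 lower, which is 39.7% of members against 2.01% of 11663 genes; on library totals the split was 12 higher and 12 lower. The groups did not overlap for 17 members in ISCs and for 10 in Paneth cells. The share of all genes whose groups did not overlap was not computed, here or in the comparisons below. All 31 members called in Paneth cells were also called in ISCs with the same sign. Across the 78 members the differences in ISCs and in Paneth cells had a Pearson r of 0.984, given as a description only, since both cell types came from the same animals.

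Behind Rps6 the members lowest in the set in ISCs were all of the large subunit. Rpl35, a protein at the rim of the exit tunnel, stood at 37.84 to 108.7 CPM in the 10 ISC samples outside the set and at 5.25 to 25.2 CPM in the 13 within it. Its log2 difference was -2.52 ± 0.20 in ISCs and -2.79 ± 0.27 in Paneth cells (SE). Rpl13 stood at 1771 to 2987 CPM outside the set and at 379.4 to 818.7 CPM within it, a difference of -1.97 ± 0.10 in ISCs and -2.21 ± 0.21 in Paneth cells. Rpl10, Rpl19 and Rpl15 followed in ISCs with -1.45 ± 0.08, -1.43 ± 0.10 and -1.09 ± 0.14, and the stalk protein Rplp0 was at -0.83 ± 0.09.

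At the other end stood Rps10 and Rps19, small subunit proteins named in Diamond-Blackfan anaemia, a failure of red cell production caused by mutations in ribosomal protein genes. Rps10 stood at 380, 382.4, 474.8, 528.8 and 767.1 CPM in young ISCs outside the set, and at 959.4 to 2047 CPM (median 1398) in the set. In aged ISCs it stood at 452.1, 468.5, 487, 522.8 and 537.2 CPM outside and at 1053 to 1736 CPM (median 1518) within. The difference was 1.52 ± 0.12 in ISCs and 1.19 ± 0.13 in Paneth cells. Rps19 was higher by 1.50 ± 0.13 in ISCs and by 1.33 ± 0.14 in Paneth cells, and Rps29 by 1.18 ± 0.16 and 0.89 ± 0.17. Among large subunit proteins Rpl23a and Rpl27 were higher in ISCs by 1.34 ± 0.19 and 1.33 ± 0.12. Of 13 members listed here as Diamond-Blackfan genes, 7 were called higher and 3 lower in the set in ISCs. Of all members 28.2% were called higher and 30.8% lower. The list need not hold every such gene among the members, and whether the listed genes differ from the others was not tested.

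**Figure D1:**
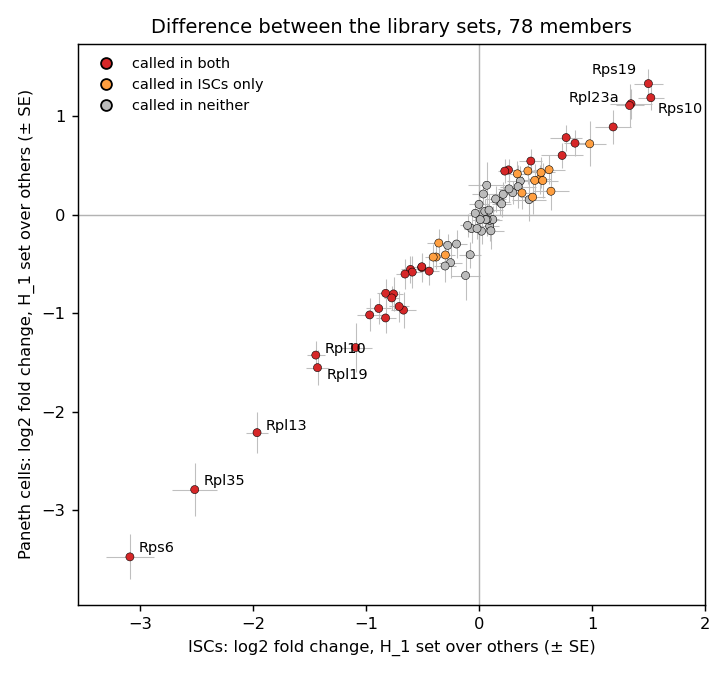
Difference between the H_1 set and the other libraries for each of the 78 members, with the log2 fold change in ISCs on the horizontal axis and in Paneth cells on the vertical axis (bars, ± SE of the edgeR fit). Colours mark members called in both cell types, in ISCs only or in neither; the points lie along 1 line from Rps6 at -3.09 and -3.48 to Rps10 and Rps19 above 1.

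The summed level of the family hid these opposite moves. The 78 members together took 14.15 ± 0.58% of the counts of nuclear genes in the 10 ISC samples outside the set (SD) and 13.75 ± 1.39% in the 13 within it. The part of member counts that fell to the small subunit differed clearly: 41.24 ± 1.63% outside the set and 46.36 ± 0.84% within it in ISCs, and 40.9 ± 1.02% (n = 17) and 46.01 ± 1.30% (n = 7) in Paneth cells. The 20 progenitor samples were at 40.01 ± 1.38%, near the values outside the set. Of 20 translation factors and other messages with a pyrimidine start, 3 were called higher and 8 lower in the set in ISCs, against 2.65% and 2.44% of all genes. Among them Btf3 differed by -2.60 ± 0.22 on the log2 scale, Tpt1 by -1.23 ± 0.08 and Pabpc1 by 0.45 ± 0.07, 3 genes singled out after their values were seen.

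Many members have near copies elsewhere in the genome, and reads from them could be assigned in more than 1 way. This was checked on 1 reference transcript per gene, and other 3' ends of the same gene were not examined. That transcript had 2045 bases for Rpl5 and 1242 for Rpl12, of which 894 and 498 were coding. Of the 78 members, 54 shared at least one 50-base stretch of the last 200 bases of their transcript with another annotated gene, and 36 shared over 50% of that stretch. Rpl35 shared 99.3% of it, Rps27 all of it, Rpl10a 78.8%, Rps18 74.8%, Rps6 and Rpl13 72.2%, Rps15 60.9%, Rpsa 57.0%, Rps10 46.4% and Rps19 27.8%. Rpl4, Rpl5, Rpl12 and Rps27l shared none. Counts of the former members are uncertain to that extent, and its part in the division between the sets was not tested. Across members, the share of the 3' end held in common had a Spearman's rho of 0.0415 with the difference in ISCs and of 0.251 with its size, given as a description over 78 genes.

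Progenitors stood below ISCs outside the set in the summed level of the family. Members together took 14.24 ± 0.60% of nuclear counts in young ISCs outside the set (SD, n = 5, range 13.41 to 14.90%) and 10.42 ± 0.97% in young progenitors (n = 10, range 9.40 to 12.19%), so that these 2 groups did not overlap. Over all 11 young ISC samples the share was 13.74 ± 1.41% with a range of 10.92 to 15.32%, which overlaps the progenitors. In aged animals the values were 14.06 ± 0.61% (n = 5) and 10.78 ± 0.62% (n = 10), with the highest progenitor at 12.27% and the lowest ISC sample at 13.29%. In bulk samples such as these, fewer cells of a type and less RNA per cell cannot be told apart.

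**Figure D2:**
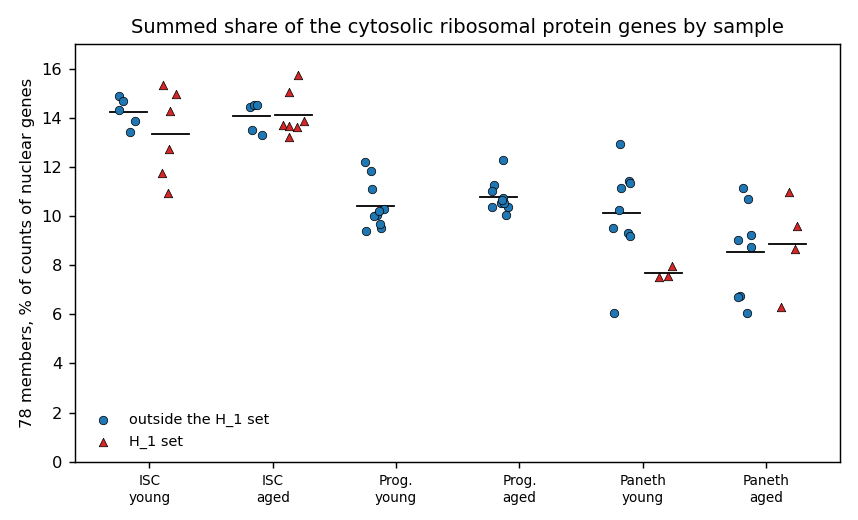
Counts of the 78 members as a percentage of the counts of nuclear genes in each of the 67 samples (points) by cell type and age, with group means as bars and the H_1 set as triangles. ISC samples outside the set lie between 13.29 and 14.90% and every progenitor sample lies at 12.27% or below. Paneth samples spread from 6.03 to 12.93%, lower than ISCs on this scale. On the TMM scale the members' median differed from ISCs by 0.03 in young and by -0.11 in aged animals.

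Over all young samples 40 of 78 members were called lower in progenitors than in ISCs and none higher, which is 51.3% of members against 11.2% of all genes called lower. Outside the set 22 were called lower (28.2%, against 5.43% of all 12935 genes tested) and none higher, and 76 of 78 point estimates were below 0. The members' median log2 difference was -0.31 outside the set and -0.36 over all samples, and that of all genes was -0.01 and -0.06. Outside the set 15 of the 22 called members belonged to the large subunit and 7 to the small. Of the 40 members called over all samples, 16 were also called outside the set, and 6 were called outside it alone. With the set as a term in the model 39 members were called lower, against 7.35% of all genes, and with the animal as a block 20 were called in either direction (25.6%, against 13.1%).

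The members that kept their difference outside the set were not those with the largest difference over all samples. Rpl5, which with Rpl11 carries the 5S rRNA into the large subunit, stood at 761.7, 764.8, 787.6, 821.9 and 997 CPM in young ISCs outside the set. In young progenitors it stood at 458.3 to 683.5 CPM (median 618.7), below every ISC sample. The difference was -0.48 ± 0.11 on the log2 scale outside the set (edgeR adjusted p = 0.00251) and -0.66 ± 0.11 over all samples (edgeR adjusted p = 4.27e-06). Rpl11, its partner, differed by -0.27 ± 0.13 outside the set and was not called (edgeR adjusted p = 0.183). Rps18, a protein of the head of the small subunit, stood at 1014, 1039, 1361, 1421 and 1450 CPM in young ISCs and at 599.6 to 1400 CPM (median 911) in young progenitors, with overlap. Its difference was -0.51 ± 0.15 (edgeR adjusted p = 0.0196). Rpsa, also known as the laminin receptor, stood at 1791, 1943, 2026, 2191 and 2605 CPM in young ISCs and at 1362 to 2054 CPM (median 1669) in young progenitors, a difference of -0.41 ± 0.14 (edgeR adjusted p = 0.0484).

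Besides Rpl5, members whose groups did not overlap outside the set included Rps9, Rpl12, Rpl4 and Rpl3, with no share over all genes to set beside them. These genes fall outside the rule for naming and were singled out after their values were seen. Rpl4, a large subunit protein with a loop that lines the exit tunnel, stood at 5181, 5519, 5712, 5752 and 6773 CPM in young ISCs and at 3641 to 5072 CPM in young progenitors. Its difference was -0.42 ± 0.10. Rps9 stood at 2163, 2275, 2426, 2508 and 2630 CPM in ISCs and at 1380 to 2133 CPM in progenitors, a difference of -0.55 ± 0.13. The fitted differences of Rpl12 and Rpl3 were -0.51 ± 0.12 and -0.39 ± 0.10. Rpl10a had the largest difference outside the set, -0.74 ± 0.17, and was at -0.31 ± 0.22 and not called over all samples, where the set was lower for it by 0.76 ± 0.09 in ISCs.

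The reverse held for the members that were high in the set. Rps19 differed by -1.49 ± 0.29 over all young samples and by -0.46 ± 0.19 outside the set, where it was not called. Rpl23a went from -1.36 ± 0.32 to -0.34 ± 0.21, Rps10 from -1.22 ± 0.29 to -0.24 ± 0.18 and Rps29 from -1.14 ± 0.28 to -0.10 ± 0.22. Rps26 and Rps28, on the mRNA exit side of the small subunit, went from -1.10 ± 0.23 and -0.91 ± 0.21 to -0.52 ± 0.21 and -0.27 ± 0.23. None of these 6 was called outside the set. Of the 13 listed Diamond-Blackfan genes, 9 were called lower over all samples and 1, Rpl5, outside the set. Of all members 51.3% and 28.2% were called lower in these 2 fits, and of all genes 11.2% and 5.43%. Whether the listed Diamond-Blackfan genes differ from the other members was not tested.

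**Figure D3:**
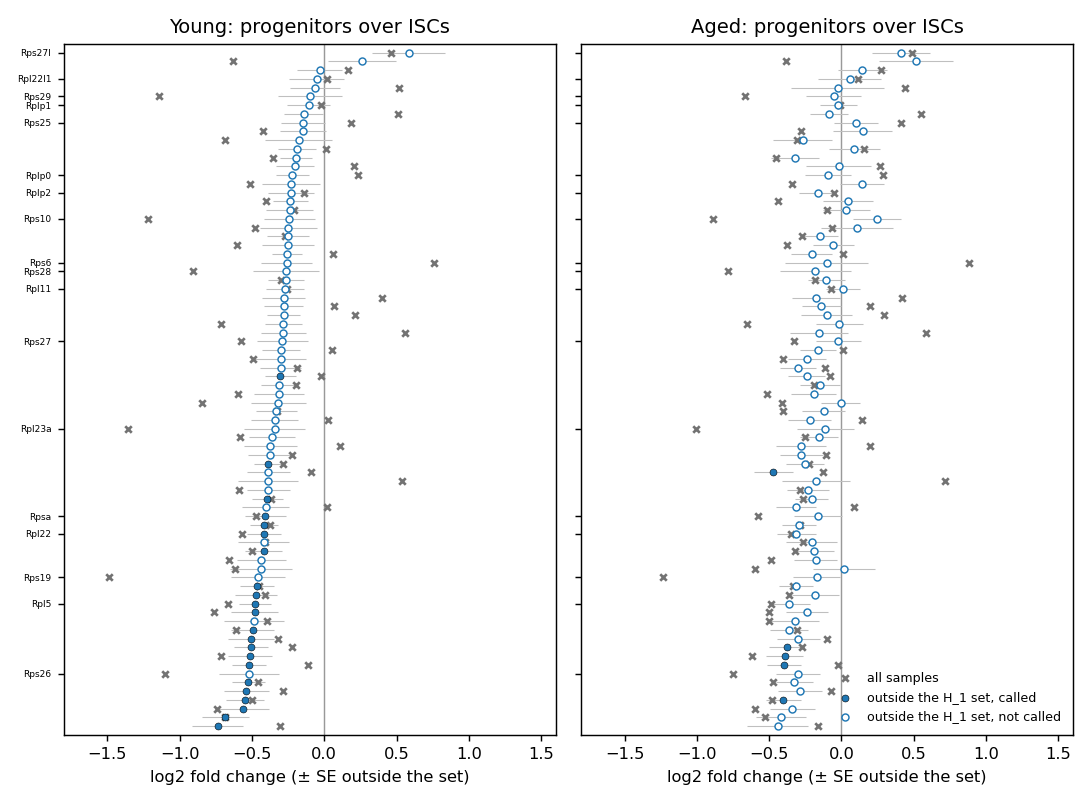
Log2 fold change of progenitors over ISCs for each of the 78 members in young (left) and aged (right) animals; circles are the fit outside the H_1 set with ± SE, filled where called, and crosses the fit over all samples, with names for the members named by rule. In young animals 22 circles are filled and 76 lie below 0, while crosses such as those of Rps19 at -1.49 and Rps10 at -1.22 lie far from their circles.

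Members not called in young progenitors against ISCs included the whole stalk, where elongation factors bind: Rplp0, Rplp1 and Rplp2 differed by -0.22 ± 0.12, -0.11 ± 0.15 and -0.23 ± 0.16 outside the set. For the paralogue pairs, differences between paralogues were not tested. Rpl22 was lower by 0.42 ± 0.12 outside the set (edgeR adjusted p = 0.0128), while its paralogue Rpl22l1 differed by -0.05 ± 0.19. Rps27l, a paralogue of Rps27 known as a p53 target, stood at 28.7 to 64.9 CPM in young ISCs outside the set and 33.2 to 88.6 CPM in young progenitors. Its difference of 0.58 ± 0.25 was not called (edgeR adjusted p = 0.129), and that of Rps27 was -0.29 ± 0.18.

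In aged animals the members' median had the same sign, with fewer calls. In either direction, calls outside the set, with the set term or with the animal block were near or below the share of all genes. Outside the set and with the set term, the share called lower was above that of all genes called lower. Over all samples 2 members, Rps27l and Rps25, were called higher and 32 lower in progenitors, against 24.4% of all genes called in either direction; the 32 lower are 41.0% of members against 10.5% of all genes called lower. Outside the set 5 were called lower (6.41%, against 4.12% of 13264 genes) and none higher, with a members' median of -0.18 and 64 of 78 estimates below 0. The 5 were Rps23, Rps4x, Rps9, Rps18 and Rpl12, at -0.47 ± 0.14, -0.40 ± 0.12, -0.40 ± 0.12, -0.39 ± 0.13 and -0.38 ± 0.12. In either direction the share of all genes called outside the set was 13.2%. With the animal as a block 13 members were called in either direction (16.7%, against 14.4% of all genes). With the set as a term 9 were lower and 1 higher, 12.8% of members against 16.6% of all genes called in either direction. The 9 lower are 11.5% of members, against 5.88% of all genes called lower. Rpl5 was at 671.3, 909.4, 977.8, 999.4 and 1086 CPM in aged ISCs outside the set and at 501.6 to 1075 CPM (median 647.2) in aged progenitors, with overlap, and its difference of -0.36 ± 0.14 outside the set was not called (edgeR adjusted p = 0.0957). Rps10 turned sign, from -0.89 ± 0.31 over all samples to 0.25 ± 0.17 outside the set. Whether the progenitor difference itself depends on age was tested as an interaction, in which 0 of 78 members were called.

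Genes that share the pyrimidine start followed in part. Of 20 translation factors and other messages of this class, 10 were called lower in young progenitors outside the set and 8 over all samples, with none higher, against 5.43% and 11.2% of all genes called lower. Nap1l1, a nucleosome assembly protein, differed by -1.30 ± 0.21 outside the set, the noncoding host RNA Gas5 by -0.95 ± 0.16, the nucleolar protein Npm1 by -0.62 ± 0.12 and the poly(A) binding protein Pabpc1 by -0.55 ± 0.11. Of 15 regulators of ribosomal protein synthesis, Myc alone was called, lower by 1.19 ± 0.24 outside the set. None of 6 dedicated chaperones of single ribosomal proteins was called. The mitochondrial ribosomal proteins, encoded in the nucleus for the separate ribosome of that organelle, had a median of 0.25 over all samples and 0.22 outside the set. Over all samples 18 of 77 tested were called higher, against 13.1% of all genes, and outside the set 2, below the 8.75% of all genes; none was called lower. Of the 10 cytosolic ribosomal proteins whose symbols the rule does not take, 5 were tested, and Rack1, a scaffold on the small subunit, was lower by 0.33 ± 0.10 outside the set. Markers of other cells moved with these differences in the same comparison over all samples: 11 of 12 ISC markers and 3 of 7 proliferation markers were called lower, and 10 of 10 enterocyte and 7 of 7 goblet markers higher. Their part in the ribosomal protein differences was not tested.

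Paneth samples differed from the other cells in composition, and the direction of family-wide statements depends on the scale. Mitochondrially encoded genes took 61.65 ± 6.74% of counts in young and 51.64 ± 10.9% in aged Paneth samples (SD, n = 12 each), against 6.27 ± 1.93% in young ISCs and 4.42 ± 1.40% in young progenitors. Fold changes below are on the TMM scale, a scaling that takes most genes as unchanged. In young Paneth cells over progenitors the members' median was 0.31 on that scale but -1.46 on library totals and -0.12 on totals of nuclear genes, where all genes had medians of -1.71 and -0.39. The members' median minus that of all genes was 0.27 on the TMM scale, 0.25 on library totals and 0.27 on nuclear totals. Directions for Paneth cells are therefore relative to all genes.

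Relative to all genes, young Paneth cells stood above progenitors for much of the family, on the TMM scale given here; the members called higher and named in the next paragraph fall below 0 on library totals. Over all samples 33 of 78 members were called higher and none lower (42.3%, against 16% of all genes called higher). On library totals the split was 0 higher and 77 lower, and on totals of nuclear genes 10 higher and 14 lower. Outside the set 45 were called higher (57.7%, against 15.7%) and 73 of 78 estimates were above 0, with 30 members called in both. By subunit, 29 of 47 large and 16 of 31 small subunit members were called higher outside the set.

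Rpsa had the smallest p in this comparison, and its groups did not overlap. It stood at 1362 to 2054 CPM (median 1669) in young progenitors, at 2215 to 5336 CPM (median 3613) in young Paneth samples outside the set, and at 2851, 3359 and 3411 CPM in those of the set. The log2 difference was 1.11 ± 0.11 over all samples (edgeR adjusted p = 1.19e-10) and 1.13 ± 0.12 outside the set, and -0.66 on library totals. Rps15, a protein of the head of the small subunit, stood at 420.6 to 1030 CPM (median 558.4) in young progenitors and at 888.5 to 2009 CPM (median 1326) in young Paneth samples outside the set, with overlap. Its difference was 1.07 ± 0.17 over all samples and 1.17 ± 0.18 outside the set. Rps19, Rpl36, Rpl41 and Rpl38, a protein known for its part in translating Hox messages, differed by 1.28 ± 0.29, 0.99 ± 0.18, 0.98 ± 0.18 and 0.97 ± 0.17 over all samples. Outside the set the differences of these 4 were 0.98 ± 0.16, 1.02 ± 0.18, 0.94 ± 0.17 and 0.97 ± 0.16, all called. Rpl22 was higher by 0.50 ± 0.10 while Rpl22l1 differed by -0.32 ± 0.17, which was not called.

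In aged animals the same comparison on the TMM scale gave 14 members higher and 2 lower, Rpl22l1 and Rps25. On library totals it gave 0 higher and 76 lower, and on nuclear totals 2 higher and 45 lower. The 16 members called on the TMM scale are 20.5% of members, against 24.1% of all genes called in either direction. The 14 higher are 17.9% of members, against 13.3% of all genes called higher. With the animal as a block 12 members were called in either direction (15.4%, against 13.4% of all genes). Outside the set 9 were higher (11.5%, against 10.8% of all genes called higher) and 1 lower, against 19.7% called in either direction. Without the second aged female Paneth sample 10 members were called in all. Rpsa was again called, at 1382 to 2259 CPM (median 1587) in aged progenitors and 1663 to 4859 CPM (median 3626) in aged Paneth samples outside the set, a difference of 1.24 ± 0.16 over all samples and 1.06 ± 0.14 outside the set. Rps15 differed by 0.88 ± 0.13 and Rpl22l1 by -0.70 ± 0.18 over all samples. Of the mitochondrial ribosomal proteins, on the TMM scale, 25 of 76 were called lower and 1 higher in aged animals over all samples, against 10.7% of all genes called lower, and 25 lower and none higher outside the set, against 8.92%. In young animals 24 of 77 were lower and 3 higher over all samples, against 11.5% of all genes lower, and 22 lower and 5 higher outside the set, against 12%. Their direction on other scales was not computed.

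Against ISCs, young Paneth cells showed a mixed picture on the TMM scale: 10 members higher and 9 lower, 24.4% of members against 30.4% of all genes. On library totals 0 were higher and 77 lower, and on nuclear totals 0 and 54. Outside the set 9 were higher and 7 lower (20.5% against 20.2%). Within the set alone, 3 Paneth samples against 6 ISC samples, 5 were called, all lower, against 12.3% of all genes. On the TMM scale, over all samples, outside the set and within it, the share of members called was thus near or below that of all genes. With the animal as a block 22 members were called in either direction (28.2%, against 22.4% of all genes). Rpsa was higher by 0.64 ± 0.11 over all samples (edgeR adjusted p = 7.28e-06) and by 0.72 ± 0.15 outside the set, although on library totals it was at -1.23. Rps15 was higher by 0.67 ± 0.16 and 0.68 ± 0.22. Lower were Rpl5, at -0.51 ± 0.10 and -0.46 ± 0.12, and Rps18, at -0.58 ± 0.13 and -0.45 ± 0.16. Rpl5 stood at 449.2 to 719.5 CPM (median 567.7) in young Paneth samples outside the set, below all 5 ISC samples outside the set. Rpl3 and Rpl4, singled out after their values were seen, also did not overlap there and differed by -0.34 ± 0.10 and -0.33 ± 0.10.

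In aged animals 5 members were higher and 17 lower in Paneth cells than in ISCs on the TMM scale (28.2%, against 28.6% of all genes). The split was 7 higher and 12 lower with DESeq2's size factors, 0 and 77 on library totals and 0 and 65 on nuclear totals. Outside the set 3 were higher and 7 lower (12.8%, against 18.5%), and within it 3 higher and 8 lower, against 14.9% of all genes. With the animal as a block 30 members were called in either direction (38.5%, against 26.2% of all genes). Rpsa stood at 1583, 1720, 1809, 1889 and 2029 CPM in aged ISCs outside the set and was higher in Paneth cells by 0.66 ± 0.15 over all samples and 0.90 ± 0.18 outside the set. Rps18 was lower by 0.65 ± 0.12 and 0.63 ± 0.14, Rps26 by 0.74 ± 0.17 and 0.66 ± 0.16, and Rpl22 by 0.46 ± 0.11 and 0.48 ± 0.14. Other cell markers moved with the Paneth comparisons: in young Paneth cells over ISCs 6 of 6 tuft, 8 of 8 enteroendocrine and 3 of 4 tested immune markers were called higher and 7 of 7 proliferation markers lower. Their part in the member differences was not tested.

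**Figure D4:**
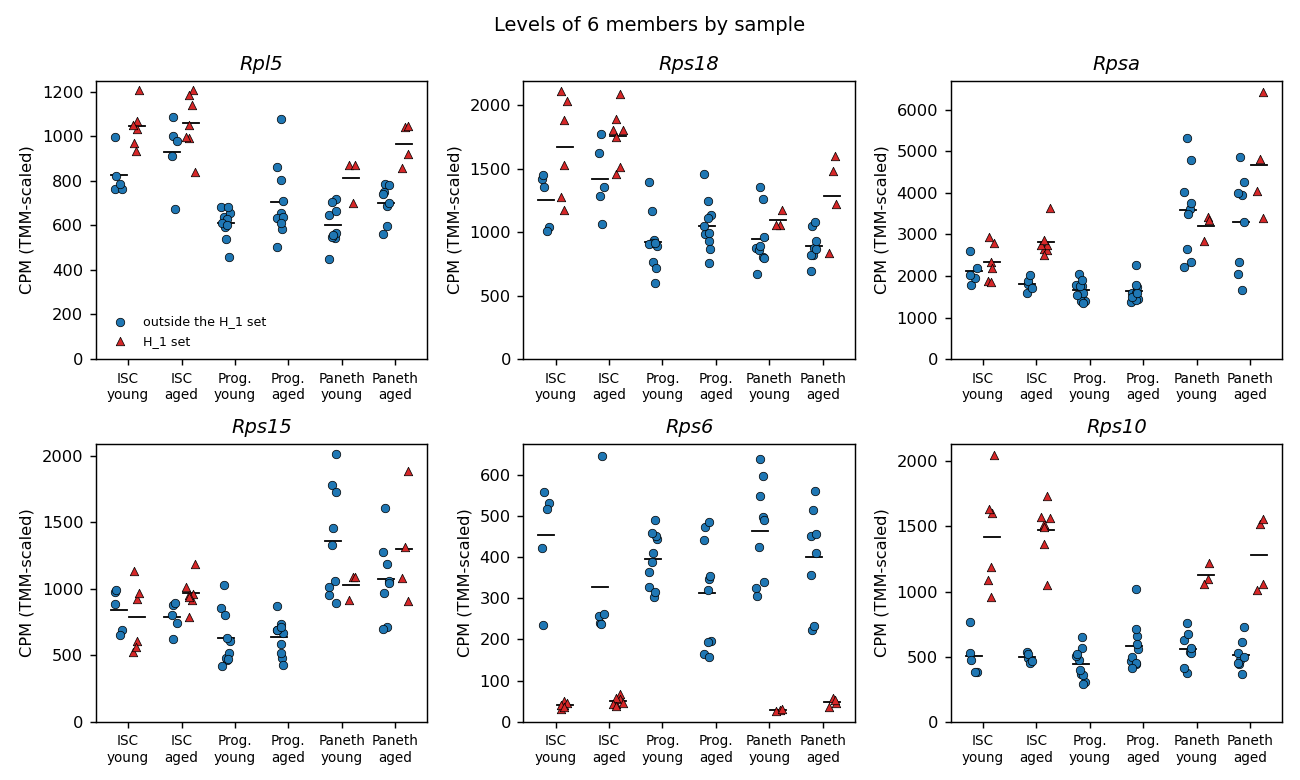
TMM-scaled CPM of 6 members in every sample by cell type and age, circles outside the H_1 set, triangles within it, bars at the means. Rpl5 and Rps18 are highest in ISCs, Rpsa and Rps15 are highest in Paneth cells on this scale (both fall below ISCs on library totals), and Rps6 and Rps10 are divided by the set in both ISCs and Paneth cells.

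The comparison of age, the study's central question, gave no called member in any cell type. By edgeR's quasi-likelihood test 0 of 78 members were called for each of ISCs, progenitors and Paneth cells, against 0.351%, 0.728% and 0.0686% of all genes. At an unadjusted p under 0.05 there were 5 members in ISCs, all higher in aged animals, 11 in progenitors, all higher, and 7 in Paneth cells, all lower. These are 6.41%, 14.1% and 8.97% of members, against 8.9%, 9.06% and 6.83% of all genes, and members vary together from sample to sample. DESeq2 and limma-voom also called 0 in each cell type. The male and female age effects differed for 0 of 78 members in each cell type, and 0 of 78 were called in each of the 3 interactions between age and cell type. Of all genes 0.00753% were called for progenitors minus ISCs, 0.0376% for Paneth cells minus ISCs and 0% for Paneth cells minus progenitors. At an unadjusted p under 0.05 these interactions gave 0 members for progenitors minus ISCs, 4 for Paneth cells minus ISCs and 11 for Paneth cells minus progenitors, against 2.19%, 8.91% and 7.27% of all genes.

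The members with the smallest p in each cell type are given as values. Rplp1, a stalk protein, differed by 0.29 ± 0.10 in ISCs (edgeR adjusted p = 0.287). In progenitors Rps24 differed by 0.34 on the log2 scale with an adjusted p of 0.214 by edgeR, and Rplp1 by 0.29 ± 0.11. In Paneth cells Rpl22 differed by -0.43 ± 0.13 (edgeR adjusted p = 0.283), with 295.8 to 411.7 CPM in young and 207.7 to 370.4 CPM in aged samples outside the set. Rpl35, singled out after its values were seen, lay farthest from 0 in Paneth cells, at -0.87 ± 0.49 over all samples (edgeR adjusted p = 0.794), -0.77 ± 0.22 outside the set and 0.21 within it. Rps6 differed by -0.46 ± 0.69 in ISCs over all samples and by -0.49 ± 0.32 outside the set. Rpl5 differed by 0.04 ± 0.09 for ISCs, 0.21 ± 0.11 for progenitors and 0.25 ± 0.13 for Paneth cells.

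The members' median age difference was 0.03 for ISCs, with 47 of 78 above 0, 0.12 in progenitors, with 62 above 0, and -0.12 in Paneth cells, with 19 above 0. Outside the set it was -0.02 in ISCs and -0.16 in Paneth cells, with 34 and 11 above 0. Within the set alone it was 0.06 in ISCs and 0.23 in Paneth cells, where the median of all genes was 0.12 in Paneth cells. On library totals the Paneth median over all samples was 0.12 and that of all genes 0.235. The members' Paneth median minus that of all genes was -0.13 on the TMM scale, -0.11 on library totals and -0.13 on totals of nuclear genes; outside the set it was -0.17 and within the set 0.11, on the TMM scale. In the age comparison of progenitors the markers of other cells also differed: 8 of 8 enteroendocrine markers (median 1.09, 1 called higher) and 10 of 10 enterocyte markers (median 0.37, none called) were above 0, and 6 of 7 proliferation markers below 0 (median -0.26, 1 called lower). Their part in the members' values was not tested. The summed share of nuclear counts was 13.74 ± 1.41% in young and 14.09 ± 0.77% in aged ISCs, 10.42 ± 0.97% and 10.78 ± 0.62% in progenitors, and 9.52 ± 2.0% and 8.65 ± 1.83% in Paneth cells (SD), each difference smaller than the spread.

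**Figure D5:**
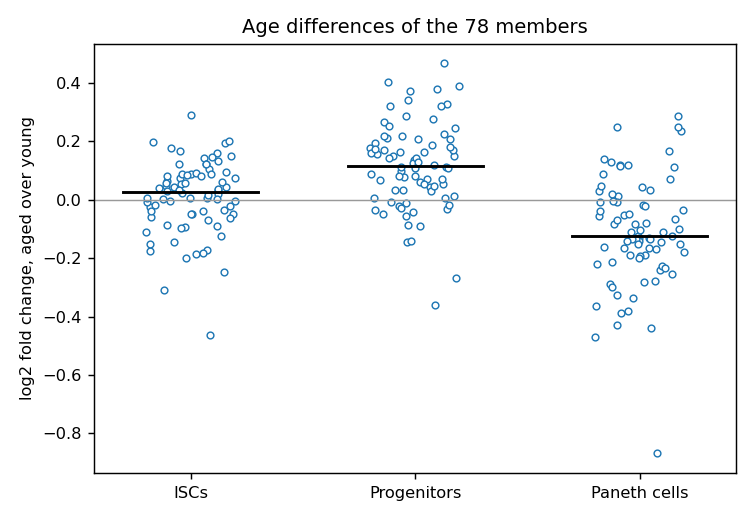
Log2 fold change of aged over young animals for each of the 78 members (circles) in ISCs, progenitors and Paneth cells on the TMM scale, with the members' median as a bar at 0.03, 0.12 and -0.12 (on library totals the Paneth median is 0.12, and that of all genes 0.235). No circle stands for a called member.

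Members moved together from sample to sample within a group. After subtracting the group means from log2 CPM, the median correlation between pairs of members was 0.31 for ISCs, 0.42 for progenitors and 0.38 for Paneth cells, while that of pairs of all genes was -0.00015, -0.0011 and 0.0028. In ISCs 11.6% of member pairs had a correlation under -0.5, and after also subtracting the set means 0.466% had, with the median at 0.47. In Paneth cells the same step moved the median from 0.38 to 0.52 and the pairs under -0.5 from 4.53% to 0.133%. On the first principal component of the members, which held 75.1% of their variance in ISCs, the 13 ISC samples of the set lay at 1.07 to 4.28 and the 10 others at -5.49 to -1.27. These correlations are descriptions over samples that differ in depth.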

How the data were processed

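The authors deposited a table of raw counts per gene and a table of CPM; per the submitters' processing notes reads went through cutadapt 3.0, STAR 2.7.9a, HTSeq 0.13.5 and DESeq2 1.30.1 with mm10. The CPM values they deposited are those counts over the library total, and were not used further. CPM printed here were computed from the counts with edgeR's TMM factors. Because only 3' ends were counted, levels are not compared between genes.

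Technical Paneth libraries were summed per animal. Counts were tested with edgeR 4.0.16 in R 4.3.3 (filterByExpr with minimum count 10, TMM, robust quasi-likelihood fit, Benjamini-Hochberg adjusted p below 0.05), with groups of age and sex, or of cell type and sex within 1 age class. All genes were fitted and adjusted together. DESeq2 1.42.0, limma-voom (limma 3.58.1), other scalings, no filter, blocks and leaving out each sample were alternatives. The scripts were tested on simulated data. The members, gene lists and tests were chosen with earlier results of these data known; the H_1 set, its test, nuclear totals and all fits outside or within the set were added after seeing the data. Members named in full were, in each comparison, up to 6 called members in each direction with the largest change of the same sign in both sexes (the 3 smallest p where under 3 were called), plus Rpl22, Rpl22l1, Rps27, Rps27l, Rpl5, Rpl11, Rplp0, Rplp1, Rplp2, Rpsa and Rps6; others are said to be singled out, and single results of some members are not reported here. Within each cell type, young and aged samples with the same replicate number did not deviate together (median correlation 0.0308 for ISCs, -0.00605 for progenitors and 0.0121 for Paneth cells), so the numbers pair nothing. Cell types from the same animal are paired by their labels (median correlation 0.0751 for progenitors and ISCs over 10 animals). Each sample is 1 animal. An animal labelled 111m and one labelled 111m 2nd were treated as separate.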

Additional observations from a re-analysis of the deposited data

Results flagged for a closer look

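In 156 checks of a group of 4 to 10 samples for a highest or lowest sample standing far from the rest, 9 flags arose. Chance alone marks about 1 check in 20, so the number of flags is near that of chance. The fifth aged female progenitor sample was highest of 5 for 3 members, with Rpl5 at 1075 CPM (nearest 656.2), Rpl11 at 833 CPM (nearest 576.2) and Rplp1 at 3011 CPM (nearest 2618). Among aged male progenitors the fifth sample was lowest for Rpl22l1 at 65.9 CPM (nearest 89.64), and the fourth had the highest summed share of members, 11.2% of nuclear counts (nearest 10.54%). The first young male progenitor sample was highest for Rplp2 at 898 CPM (nearest 746.6), and the first young female ISC sample, of the H_1 set, for Rpsa at 2805 CPM (nearest 2191). Among young male Paneth samples the first, the only one of that group in the H_1 set, had the highest small subunit share of member counts, 46.6% (nearest 42.23%), and among aged female Paneth samples the first had the lowest summed share of members, 6.3% of nuclear counts (nearest 8.645%).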

How the results depend on the processing

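The counts of called members in the 3 age comparisons and their 3 interactions were 0 under every alternative run. Scaling by DESeq2's size factors, leaving out mitochondrially encoded genes or the low-count filter, DESeq2, limma-voom and keeping members of at least 100 CPM changed no count of called members by over 1.5 times. Leaving out each sample in turn gave 0 to 0 members for the age comparisons and interactions, 43 to 48 and 24 to 33 for the H_1 set in ISCs and Paneth cells, 36 to 44 and 27 to 37 for progenitors against ISCs in young and aged animals, 15 to 22 and 19 to 24 for Paneth cells against ISCs, and 28 to 38 and 10 to 20 for Paneth cells against progenitors. The lowest of the last, 10, came without the second aged female Paneth sample. A replicate block on the replicate number, which pairs nothing here, gave 41 and 27 members for progenitors against ISCs, 20 and 24 for Paneth cells against ISCs, 36 and 15 for Paneth cells against progenitors in young and aged animals, and 0 for each age effect. With the animal as a block progenitors against ISCs gave 20 members in young and 13 in aged animals. These counts moved by over 1.5 times from the 40 and 34 of the main fit.

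Besides those with the animal as a block, counts moved by over 1.5 times as follows, and the cause was not tested. Outside the H_1 set they were 22 for young and 5 for aged progenitors against ISCs, 10 for aged Paneth cells against aged ISCs and 10 for aged Paneth cells against aged progenitors. With the set as a term aged progenitors against aged ISCs gave 10. Within the set alone Paneth cells against ISCs gave 5 in young and 11 in aged animals. With only technical library 1 of each Paneth animal the set gave 17 in Paneth cells, and aged Paneth cells against aged progenitors gave 8. On library totals young and aged Paneth cells against ISCs gave 77 and 77, and against progenitors 77 and 76. On totals of nuclear genes young and aged Paneth cells against ISCs gave 54 and 65, and aged Paneth cells against aged progenitors 47. These 2 scales moved the medians of all genes as well: on library totals to -1.86 and -1.61 for young and aged Paneth cells against ISCs and to -1.71 and -1.45 against progenitors, and on nuclear totals to -0.57 and -0.65 and to -0.39 and -0.46.

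On library totals the log2 differences of aged Paneth cells against aged ISCs turned for Rpsa (-0.95), Rpl38 (-1.06), Rps27l (-1.10), Rps15 (-1.25), Rpl13a (-1.25) and Rplp0 (-1.42). On library totals the log2 differences of aged Paneth cells against aged progenitors turned for Rpsa (-0.23), Rps19 (-0.20), Rpl36 (-0.55), Rps15 (-0.61), Rpl41 (-0.71), Rpl28 (-0.84) and Rpl5 (-1.30). On library totals the log2 differences of young Paneth cells against young ISCs turned for Rps15 (-1.20), Rpsa (-1.23), Rpl26 (-1.39), Rpl38 (-1.39), Rpl41 (-1.40), Rps27l (-1.58), Rplp0 (-1.71), Rplp1 (-1.68), Rplp2 (-1.52) and Rps6 (-1.27). On library totals the log2 differences of young Paneth cells against young progenitors turned for Rps19 (-0.48), Rpsa (-0.66), Rps15 (-0.69), Rpl36 (-0.78), Rpl41 (-0.77), Rpl38 (-0.80), Rpl22 (-1.25), Rps27 (-1.41), Rpl5 (-1.60), Rpl11 (-1.56), Rplp1 (-1.55) and Rplp2 (-1.28). On totals of nuclear genes the log2 differences of aged Paneth cells against aged ISCs turned for Rpl38 (-0.13), Rps27l (-0.18), Rps15 (-0.28), Rpl13a (-0.27) and Rplp0 (-0.43). On totals of nuclear genes the log2 differences of aged Paneth cells against aged progenitors turned for Rpl5 (-0.30). On totals of nuclear genes the log2 differences of young Paneth cells against young ISCs turned for Rpl26 (-0.072), Rpl38 (-0.092), Rpl41 (-0.11), Rplp1 (-0.36) and Rplp2 (-0.20). On totals of nuclear genes the log2 differences of young Paneth cells against young progenitors turned for Rpl5 (-0.29).

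For aged progenitors against aged ISCs Rps10 turned to 0.15 with the set as a term and to 0.25 outside it, and for young Paneth cells against young ISCs Rplp2 turned to -0.048 within the set. Of the other values of named members, 2599 kept their direction and side of the threshold over all alternatives but leaving out a sample, 140 lost their call and 56 gained one; leaving out each sample kept 6763, lost 79 and gained 12. Depth limits members of low count, and the 5 ISC samples outside the set in each age class limit every comparison made there.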
